A study of Mus musculus with 2 samples.

Results

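Malat1, Neat1, Miat, Snhg11 and Gm42418 are 5 of the 32285 genes counted in the RNA library of a SPARC-seq experiment, in which RNA and open chromatin are read from the same barcoded spots of a tissue. They were chosen by name, with their raw counts in these data already known, so their abundance is a description and is not tested. The tissue was brain of an E18.5 C57BL/6 mouse embryo, homozygous for the R567W mutation of Ctcf, the gene of the chromatin architectural protein CTCF. The mutation had been introduced by CRISPR/Cas9 genome editing. The number of embryos behind the libraries is not given in the sources used here. There was 1 RNA library and 1 accessibility library, with no replicate and no wild-type library analysed here, so every interval below covers counting error only and no comparison has a replicate check.

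These transcripts differ in what they are known for. Malat1 is a long nuclear RNA of nuclear speckles, the nuclear domains rich in splicing factors, and its mature 3′ end carries no poly(A) tail. Neat1 is the scaffold RNA of paraspeckles, nuclear bodies that hold RNA-binding proteins such as Nono and Sfpq. Miat, also called Gomafu, is a nuclear RNA of neurons that binds splicing factors. Snhg11 is a host gene of small nucleolar RNAs and is known from neurons. Gm42418 is a gene model laid over ribosomal RNA sequence, and ribosomal RNA genes lie in tandem repeats of which the assembly places a piece at this position.

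In GRCm38 (mm10) with GENCODE annotation, Malat1 lies at chr19:5795690-5802672 on the minus strand and Neat1 at chr19:5824708-5845478, also on the minus strand. Both are single stretches of exon, of 6983 and 20771 bp. Miat spans chr5:112213228-112229395 on the minus strand with 9293 bp of exon. Snhg11 spans chr2:158375638-158386145 on the plus strand with 8521 bp of exon, and GENCODE types it as protein_coding, whereas the other 4 are typed as lincRNA. Gm42418 lies at chr17:39846958-39848788 on the plus strand, 1831 bp long.

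The Gm42418 sequence is shown because it decides what its counts can mean. RefSeq places the record Rn18s-rs5, an 18S ribosomal RNA related sequence, at chr17:39846354-39848202 on the same strand, and 1245 bases of Gm42418, or 68.0% of its length, lie inside it. The remaining 586 bases follow the end of that record. In the stretch chr17:39848083-39848262 (GRCm38.p6, plus strand), the 120 bases inside the 18S record are in capitals and the 60 bases after it in lower case.
Gm42418 at the end of the 18S record: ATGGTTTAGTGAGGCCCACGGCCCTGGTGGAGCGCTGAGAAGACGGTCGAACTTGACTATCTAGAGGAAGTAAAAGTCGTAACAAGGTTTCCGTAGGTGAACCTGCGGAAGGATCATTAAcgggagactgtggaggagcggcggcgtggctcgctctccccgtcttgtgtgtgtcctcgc

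Among GENCODE transcripts, only those of CT010467.1 and AY036118 matched the Gm42418 span over at least 100 bases at 95% identity or more, besides Gm42418 itself. Both run on the opposite strand at the same place. CT010467.1 matched over 1244 bases and is not among the genes counted here. AY036118 matched over 923 bases and had 6003 UMIs (unique molecular identifiers, one per captured RNA molecule). Elsewhere in the genome there were 2 matches, of which the longer, on chromosome 6, covered 624 bases at 97.8% identity. Whether the counting used strand is not given in the sources used here, and without strand the reads of Gm42418 and its antisense partner cannot be told apart.

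RefSeq promoters, from 250 bases before to 50 bases after each start, were found for 3 of the 5 genes, and are shown as the sequence around the annotated starts. The accessibility windows used further on are longer and were placed on the GENCODE starts. Capitals mark matches, on either strand, to TATAAA (in 13.6% of 32851 promoters of the same length), CCAAT (37.4%), GGGCGG (35.7%), TGACG (20.8%) or CCGGAA (14.9%).
Malat1, chr19:5802623-5802922, minus strand: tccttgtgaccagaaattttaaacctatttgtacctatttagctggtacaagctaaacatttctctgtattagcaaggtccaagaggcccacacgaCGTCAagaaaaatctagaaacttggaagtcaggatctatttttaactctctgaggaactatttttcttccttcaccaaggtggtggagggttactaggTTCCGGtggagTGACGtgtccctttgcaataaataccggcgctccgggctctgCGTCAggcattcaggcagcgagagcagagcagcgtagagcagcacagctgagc
Miat, chr5:112228899-112229198, minus strand: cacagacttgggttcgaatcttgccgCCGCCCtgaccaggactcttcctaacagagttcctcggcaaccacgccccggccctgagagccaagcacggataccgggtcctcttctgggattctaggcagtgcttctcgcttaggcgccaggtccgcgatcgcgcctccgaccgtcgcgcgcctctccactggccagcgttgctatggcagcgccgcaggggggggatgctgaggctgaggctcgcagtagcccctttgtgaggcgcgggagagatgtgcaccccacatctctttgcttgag
Snhg11, chr2:158375463-158375762, plus strand: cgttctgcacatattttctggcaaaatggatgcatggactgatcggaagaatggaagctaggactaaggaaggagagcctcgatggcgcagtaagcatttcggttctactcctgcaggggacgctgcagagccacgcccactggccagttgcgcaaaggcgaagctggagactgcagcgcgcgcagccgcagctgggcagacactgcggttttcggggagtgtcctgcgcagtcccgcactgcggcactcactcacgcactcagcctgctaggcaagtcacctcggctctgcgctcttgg

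The Malat1 promoter held 3 TGACG matches and 1 CCGGAA match, none overlapping another. The Miat promoter held 1 GGGCGG match, and the Snhg11 promoter held none of the 5 motifs. The Miat promoter contained 25 CpG dinucleotides, Snhg11 21 and Malat1 10, against a median of 7 over all promoters. A match is a description of letters in this window and not a binding site. The RefSeq start of Miat lies 447 bp inside the most upstream GENCODE start and that of Snhg11 75 bp inside it, while the Malat1 starts coincide.

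The library held 8711132 UMIs in 1992 kept spots, with 907 to 12442 UMIs a spot and a median of 4157. The spots are an inference: a barcode joins a first and a second segment, each 8 bases long and 1 of 50 sequences, and the accessibility file held all 2500 pairs. A spot can hold several cells, so fewer cells of a type and less RNA per cell cannot be told apart. The labelled tissue was checked against neuronal markers, which had 42557 UMIs over 8 genes. Skeletal muscle RNA was also present, with 57795 UMIs over 12 genes, more than the neuronal list. It was found throughout, at 12.1 UMIs per 10000 or more in every spot of the muscle-poor group defined below, and at 47.2 over that group beside 54.6 for the neuronal list. It was highest in a few segments. Of 44 second segments with at least 20 kept spots, 6 had 27.4 to 41.8 UMIs of Acta1 (skeletal actin) plus Ttn (titin) per 10000 UMIs of other genes, and no other segment exceeded 14.9. These 6 segments held 151 of the 199 spots with most muscle RNA.

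Gm42418 had 447353 UMIs, 5.14% of the library (95% Clopper-Pearson interval 5.12 to 5.15%). It was the gene with most UMIs, 10.2 times the next, Tmsb10. It was detected in all 1992 spots, at 48 to 808 UMIs with a median of 209, and took between 2.93 and 11.4% of a spot's UMIs. Malat1 was the 16th gene, with 17131 UMIs or 0.197% of the library, and a spot held 0 to 38 with a median of 8. Only 11 spots had none.

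Snhg11 had 4936 UMIs (rank 172), with a median of 2 and at most 12 in a spot, and was seen in 86.6% of spots. Miat had 1891 UMIs (rank 793), with a median of 1 and at most 7, and was seen in 57.8% of spots. Neat1 stood apart from the other 4. It had 263 UMIs, 30.2 CPM (its share of the library on the usual counts scale, Poisson interval 26.6 to 34.1), and ranked 6707th. No Neat1 UMI was seen in 1767 spots, 193 spots had 1, and no spot had more than 4. The description of these genes as abundant therefore did not hold for Neat1 in this library.

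Per kilobase of exon, Gm42418 had 244322 UMIs, Malat1 2453, Snhg11 579, Miat 204 and Neat1 12.7. The median over 26343 genes with a UMI was 16.9, so that Neat1 lay below it, at percentile 45.3, and Miat above it, at 92.8. On this scale the counting intervals of neighbouring genes in the order did not overlap. The place of Neat1 depended on the length used. Per kilobase of gene span, where Neat1 has no intron and most genes do, the median gene had 2.62 UMIs and Neat1 lay at percentile 80.0. Each UMI stands for a molecule whatever its length, so neither length is the one correct divisor.

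For comparisons between spots, the level of a gene was expressed as its UMIs per 10000 UMIs of all genes other than these 5. When spots were ranked by depth (the UMIs of other genes) and cut into 5 bins of equal size, Malat1 lay at 20.3, 20.2, 20.7, 20.3 and 21.6 from the shallowest bin to the deepest. The highest bin was 1.07 times the lowest (1.01 to 1.13), with an interval that included 1 when spots had at least 2000 UMIs (1.04, 0.991 to 1.10) or the segment of highest Neat1 level was left out (1.05, 0.994 to 1.11). Its raw UMIs followed depth, with a median of 4 a spot in the lowest bin and 14 in the highest. Miat lay between 2.01 and 2.41 in the bins, without an order by depth. Snhg11 lay at 5.78 in the lowest bin and then at 6.85, 6.08, 6.03 and 5.58, and the highest bin was 0.965 times the lowest (0.869 to 1.07). With at least 2000 UMIs a spot that fold was 0.893, with an interval that excluded 1 (0.809 to 0.987).

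Gm42418 was lower in each deeper bin, at 563, 557, 551, 538 and 529.6 per 10000, which put the highest bin at 0.941 times the lowest (0.931 to 0.951). With the number of accessibility fragments as depth, the same ratio was 1.14 (1.13 to 1.15), in the opposite direction. Neat1 had only 13 UMIs in the lowest bin, a level of 0.164, and 0.316 to 0.354 in the other 4. Its ratio was 2.15 (1.20 to 4.19). It was 1.49 (0.916 to 2.52), under 1.5-fold, with at least 2000 UMIs a spot, and its interval also included 1 with 10 bins (1.78, 0.851 to 4.29) and without the segment of highest Neat1 level described below (1.82, 0.981 to 3.68). The interval excluded 1 with accessibility fragments as depth (2.46, 1.496 to 4.24) and without muscle-rich spots (1.95, 1.06 to 3.94). Fragments per spot also differed with muscle content, with medians of 31991 in the muscle-rich and 20794 in the muscle-poor spots defined below. The part of muscle in the Gm42418 and Neat1 ratios by fragments was not tested. Of 7931 genes with at least 200 UMIs, 3.19% were higher by at least 1.5-fold in the deepest bin and 1.60% were lower. The epithelial list was higher in the deepest bin as well, at 2.37 against 1.29 UMIs per 10000, and its part in the Neat1 difference was not tested.

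**Figure D1:**
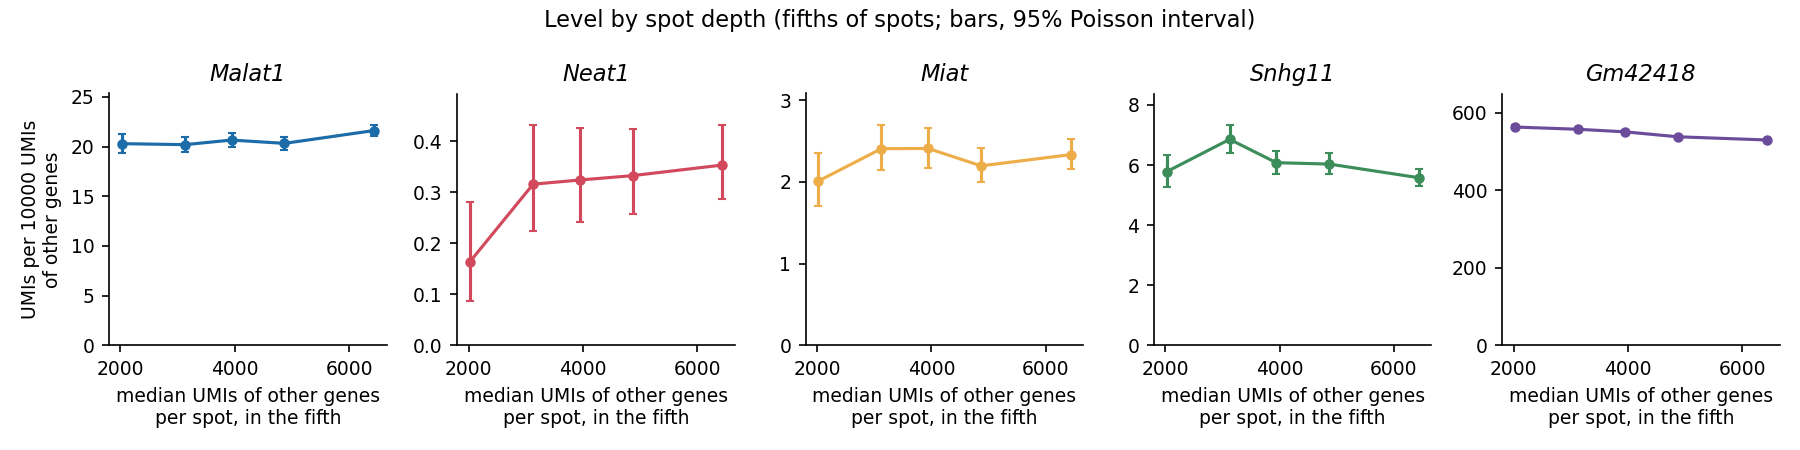
Level of each gene (vertical axis, UMIs per 10000 UMIs of other genes, from 0) against the median depth of 5 equal bins of spots (horizontal axis, UMIs of other genes per spot); points are pooled levels and bars 95% Poisson intervals. Malat1 stays between 20.2 and 21.6, Gm42418 declines from 563 to 529.6, and the lowest bin of Neat1 rests on 13 UMIs.

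Beyond the spread that counting gives, the coefficient of variation over spots was 0.114 for Malat1. All 14 genes within 1.25 times its UMIs were more variable, with a median of 0.168. Miat, at 0.136, and Snhg11, at 0.207, lay at percentiles 39.1 and 70.6 of the genes of similar UMIs. Neat1, at 1.03, exceeded 98.7% of 1960 genes of similar UMIs, whose median was 0.366. Gm42418 varied by 0.214, and no other gene had a similar number of UMIs. Over the spots, Spearman's rho between the Malat1 and Gm42418 levels was 0.0903, a weak correlation across 1992 spots of one library.

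Spots were next compared by muscle content. The 199 muscle-rich spots, the 10% with the highest share of Acta1 and Ttn, were set against the 996 muscle-poor spots, the 50% with the lowest. Muscle-rich spots had a median of 4345 UMIs and 31991 accessibility fragments, against 4058 and 20794. Neat1 was higher in the muscle-rich spots, with 48 UMIs against 89, or 0.587 against 0.219 UMIs per 10000, a fold of 2.67 (1.84 to 3.84). It was the only one of the 5 genes past 1.5-fold. Among 7931 genes, 6.52% were higher by at least that much and 5.76% lower, and the median fold was 0.968.

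Gm42418 was higher by 1.40 times (1.39 to 1.41), at 709 against 506 UMIs per 10000. Single spots ranged from 402 to 1284 with a median of 701 in the muscle-rich group and from 321 to 1258 with a median of 503 in the muscle-poor group, so the groups overlapped. Malat1 was higher by 1.21 times (1.15 to 1.27), with spot medians of 23.6 and 19.7. Miat, at 2.35 against 2.24, had a fold of 1.05 with an interval that included 1 (0.892 to 1.22). Snhg11 was lower, at 5.10 against 6.27, a fold of 0.814 (0.732 to 0.903).

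The muscle-rich spots held more than muscle. The epithelial list (Wfdc2, Epcam, Krt8, Krt18 and Foxj1) was 3.12 times higher in them, all 4 of its genes with enough UMIs being past 1.5-fold. The connective tissue list was 2.71 times higher, with Col1a1 (type I collagen) at 2.84 times. A list of cell cycle genes was 1.54 times higher. Of its 3 genes with enough UMIs, 1 was past 1.5-fold, Top2a at 2.16, while Ube2c was at 0.966. A list of choroid plexus genes was at 0.594 times. Ttr held 10947 of its 11422 UMIs, at 0.5835, while Enpp2, the other gene with enough UMIs, was at 1.02. The neuronal list was 0.715 times the muscle-poor level, 39.0 against 54.6 UMIs per 10000, and 3 of its 8 genes were lower by at least 1.5-fold, including Stmn2 at 0.602 and Tubb3 at 0.624. Without the 10% of spots highest for the epithelial list, the muscle folds were 2.23 (1.44 to 3.40) for Neat1, 1.37 (1.35 to 1.38) for Gm42418, 1.20 (1.14 to 1.27) for Malat1, 0.837 (0.748 to 0.934) for Snhg11 and 0.981 (0.821 to 1.17) for Miat. The part of connective tissue, neurons and the other lists was not tested.

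The Gm42418 level differed by segment. In the 6 muscle-high second segments it was 698 to 752 UMIs per 10000, and in the other 38 segments it was 422 to 689, without overlap. Of 3979 genes with at least 500 UMIs, 1.06% were likewise higher in all 6 segments than in every other and 0.302% were lower in all 6. Malat1 lay at 23.4 to 25.6 in the 6 segments and at 17.7 to 26.3 in the others, with medians of 24.0 and 19.7. The medians of Neat1 were 0.672 and 0.202, those of Snhg11 5.11 and 6.11, and those of Miat 2.24 and 2.24, and all 4 overlapped.

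Within the 6 segments, 151 muscle-rich spots and 128 others differed in Acta1 plus Ttn, at 45.1 against 19.2 UMIs per 10000. The Gm42418 level was 723 against 721, a fold of 1.003 (0.991 to 1.01), and those of Malat1, Miat and Snhg11 were 0.975 (0.911 to 1.04), 1.11 (0.885 to 1.40) and 1.03 (0.886 to 1.20), all with intervals that included 1. Neat1 turned in direction, with 42 UMIs against 66 and a fold of 0.635 (0.420 to 0.949). Outside the 6 segments, 48 muscle-rich spots over 979 muscle-poor ones gave a fold of 1.25 for Gm42418 (1.22 to 1.27), 1.21 for Malat1, 0.742 for Snhg11 (0.557 to 0.969) and 1.02 for Miat. For Neat1 it was 2.57 on 6 UMIs (0.915 to 5.85). The epithelial list moved with the 6 segments too, at 1.90 to 16.3 UMIs per 10000 in them against 0.666 to 1.90 in the other 38. Its part in these differences was not tested, and position on the tissue and barcode segment cannot be told apart here.

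**Figure D2:**
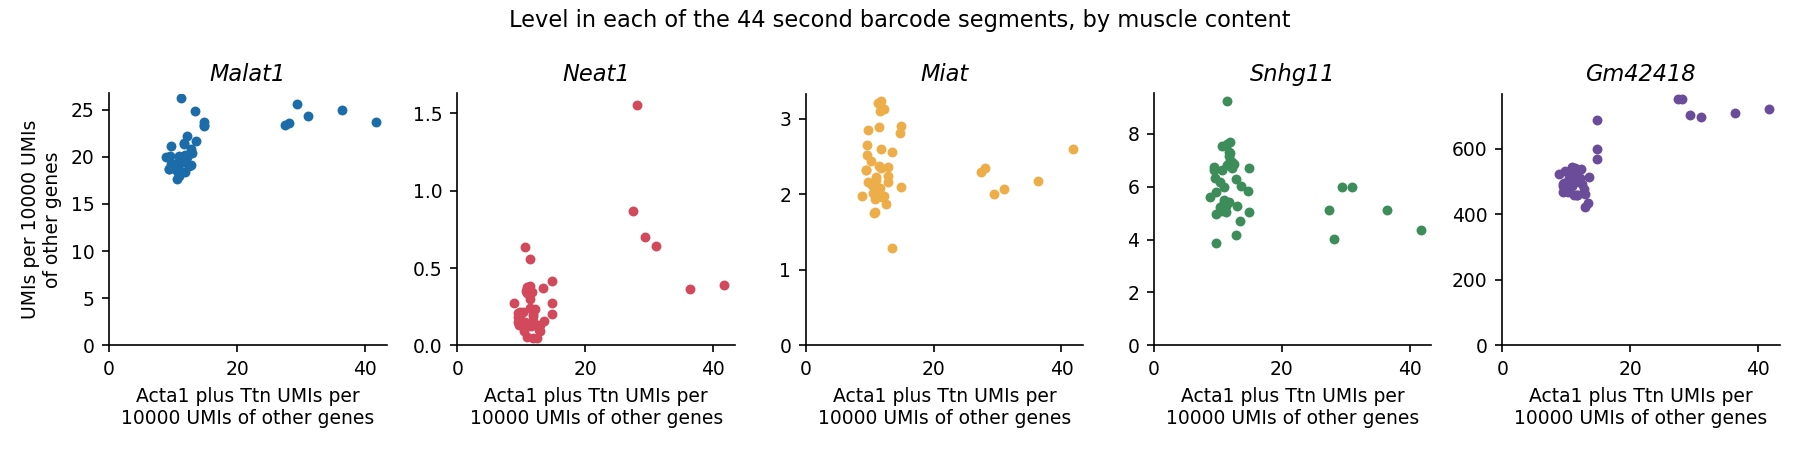
Level of each gene (vertical axis, UMIs per 10000 UMIs of other genes) in each of 44 second barcode segments, against the Acta1 plus Ttn level of that segment (horizontal axis, same unit); each point is 1 segment. The 6 segments above 27 on the horizontal axis stand apart, and for Gm42418 all of them lie at 698 or more while the others stay at 689 or less.

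The segment with the highest Neat1 level had 49 spots, 41 Neat1 UMIs or 15.6% of the total, and a level of 1.55 UMIs per 10000 against a median of 0.217 over the 44 segments. The same segment had the highest Gm42418 level, 752, and 16.3 UMIs of the epithelial list per 10000. Without it, the Neat1 level in the library was 26.3 CPM and its fold in muscle-rich spots 2.46.

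Ranked by the epithelial list in place of muscle, the 199 highest spots held 72 Neat1 UMIs against 94 in the 996 lowest, a fold of 3.55 (2.58 to 4.88), which was 2.20 (1.48 to 3.22) without that segment. Without the muscle-rich spots it was 3.24 (2.27 to 4.60), and, as given above, the muscle fold without epithelium-rich spots was 2.23. The spots highest for the epithelial list had a median of 4046 UMIs and the lowest 3662, and the part of depth was not tested. For spots ranked by these lists, the share of all genes past 1.5-fold was not counted. Neat1 was also higher in spots rich in ribosomal protein genes (3.06), mitochondrial genes (2.40), connective tissue genes (2.22), other long non-coding RNAs (2.12) and microglial genes (2.04), and lower in spots rich in neuronal genes (0.564, 0.315 to 0.945) and neuronal splicing factors (0.487, 0.272 to 0.817). These were the lists whose intervals excluded 1, besides muscle and epithelium. The lists share spots. Of the 199 spots highest for a list, 93 were muscle-rich for other long non-coding RNAs, 67 for connective tissue and 65 for ribosomal protein genes. The number was 55 for epithelium, 52 for mitochondrial, 20 for microglial and 5 for neuronal genes.

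Gm42418 moved the same way with smaller folds, at 1.53 in connective tissue-rich spots, 1.38 in ribosomal protein-rich spots, 1.30 in epithelium-rich spots and 0.868 in neuron-rich spots. Malat1 was at most 1.23 times higher, by the list of 12 muscle genes, and 0.889 times in neuron-rich spots. Snhg11 ran the other way, at 0.741 in ribosomal protein-rich spots and 1.10 in neuron-rich spots (0.996 to 1.22). For Miat the folds over all lists lay between 0.859 and 1.16.

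**Figure D3:**
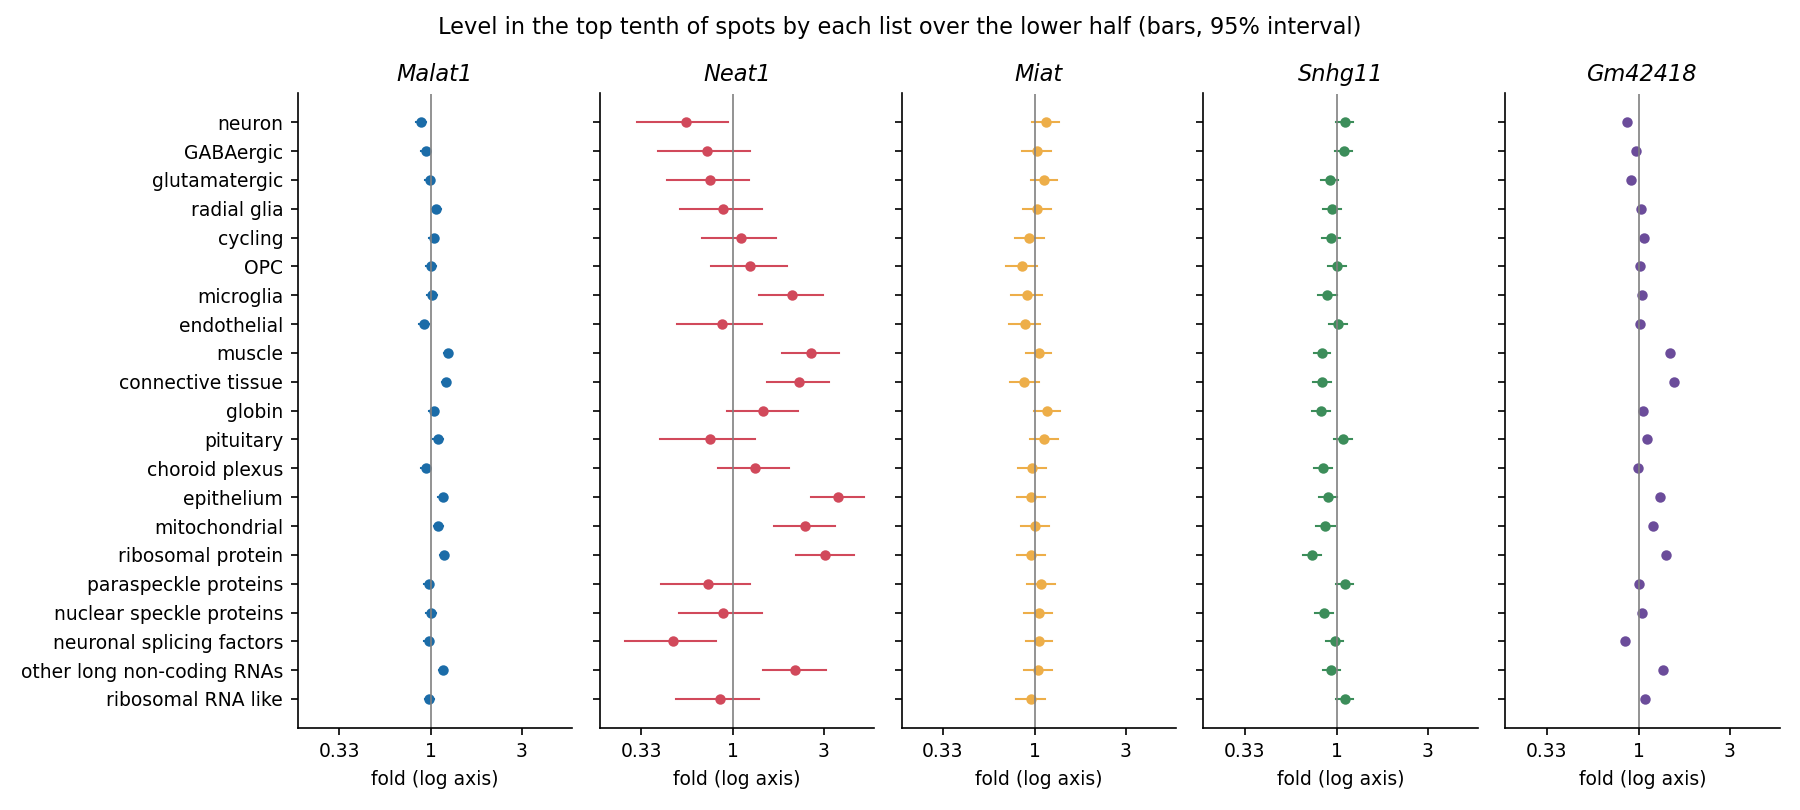
Fold of each gene's level (horizontal log axis) in the 10% of spots highest for each gene list over the 50% lowest, one row a list; points are folds, bars 95% intervals and the grey line a fold of 1. Neat1 spans 0.487 to 3.55 over the lists, while Miat stays between 0.859 and 1.16. The microglial and oligodendrocyte precursor (OPC) lists had 824 and 944 UMIs, so their 50% lowest are tied spots at 0, taken in barcode order.

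The genes of proteins that work with these RNAs were counted in the same comparison of muscle-rich with muscle-poor spots. Their folds are of RNA, and no protein was measured. None of 12 paraspeckle proteins was higher by 1.5-fold, and Rbm14, at 0.547, and Matr3, at 0.661, were lower, with a median fold of 0.915 against 0.968 over all genes. Sfpq and Nono, the core paraspeckle proteins, had folds of 1.16 and 0.838. Of 12 nuclear speckle proteins, 1 was lower, the splicing factor Srsf6 at 0.622, and none higher, with a median of 0.989. The large speckle proteins Son and Srrm2 had folds of 1.20 and 0.955.

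Among 10 neuronal splicing factors, Nova1 was lower, at 0.590, none was higher, and the median was 0.815. The list holds the known partners of Miat, with Celf3 at 0.729, Qk at 0.948 and Sf1 at 1.01. Of 16 other long non-coding RNAs with at least 200 UMIs, the imprinted H19, at 2.94, and Airn, at 2.38, were higher and none was lower, with a median of 1.14. Meg3, the long non-coding RNA with most UMIs in that list, had a fold of 1.08. Beside 6.52% higher and 5.76% lower among all genes, nothing particular to a list was read from these counts.

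The ribosomal RNA neighbours of Gm42418 did not share its fold. AY036118, on the opposite strand of the same bases, was at 1.06 (0.975 to 1.16), and Gm26917, just upstream on chromosome 17, at 0.943 (0.813 to 1.09). There were 91.2 Gm42418 UMIs for each AY036118 UMI in muscle-rich spots (84.4 to 98.8) and 69.2 in muscle-poor spots (66.7 to 71.8).

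The genes whose levels were most like those of each member over the 44 second segments were found among 3979 genes with at least 500 UMIs, by Spearman's rho. They were Ttn (0.738), Atp2a1 (0.714) and Myl1 (0.698), all of muscle, for Malat1. For Neat1 they were Actn4 (0.602), Vim (0.580) and Dleu2 (0.572), and for Miat 2210408I21Rik (0.553), Dpf3 (0.465) and Prrc2b (0.441). For Snhg11 they were Caly (0.735), Grm5 (0.726) and Pcsk1n (0.703), all neuronal genes, and for Gm42418 Uqcr11 (0.744), Lmna (0.694) and Rbms3 (0.666). The segments share 1 library, and 6 of them stand apart, so these values describe a ranking and carry no test.

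Accessibility was read as transposase fragments that overlap 1 kb on either side of the most upstream GENCODE start. Gm42418 had 53497 promoter fragments, the most of 32235 genes, with 1 to 146 a spot and a median of 25. Its start lies inside the 18S record, so its window lies over the ribosomal repeat. For this gene, promoter is used only as the name of the window. AY036118, whose window covers the same repeat, was next at 49111. Malat1 had 451 (410 to 495), Neat1 364 (328 to 403), Miat 225 (197 to 256) and Snhg11 205 (178 to 235). No spot held more than 3 fragments of any of these 4, and the median spot held none.

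Among all genes these 4 lay at percentiles 89.5, 84.4, 70.4 and 67.6, and against a median of 98 fragments. Thus Neat1, lowest of the 5 in RNA per kilobase of exon, had more promoter fragments than Miat and Snhg11, and the intervals did not overlap. Over the whole gene span, Gm42418 had 26877 fragments per kb, while Miat had 86.9, Malat1 52.3, Neat1 46.6 and Snhg11 39.8. Its span took 0.105% of all fragments. Over the spots, Spearman's rho between the Gm42418 RNA level and its share of fragments was -0.133, a weak correlation across 1992 spots that share both libraries.

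The insertions were not always at the annotated start. In bins of 100 bp, Malat1 peaked between 1000 and 900 bp upstream with 205 insertions, against 12 in the median bin. The called peak there, chr19:5803236-5804132, had 846 cut sites, and the peak over the start, chr19:5802201-5802859, had 232. Neat1 had its highest bin 1300 to 1200 bp upstream, inside the peak chr19:5846435-5847252 with 590 cut sites, beside a peak near the start, chr19:5845362-5846142, with 507. Miat peaked in the bins that begin 600 and 700 bp downstream of the GENCODE start, with 62 insertions each. They lie past the RefSeq start shown above, in chr5:112228343-112229208. Snhg11 peaked in the first 100 bp, in chr2:158375308-158376138. Around Gm42418, the start itself was a trough and the highest bin, 1300 to 1400 bp inside, held 9800 insertions.

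**Figure D4:**
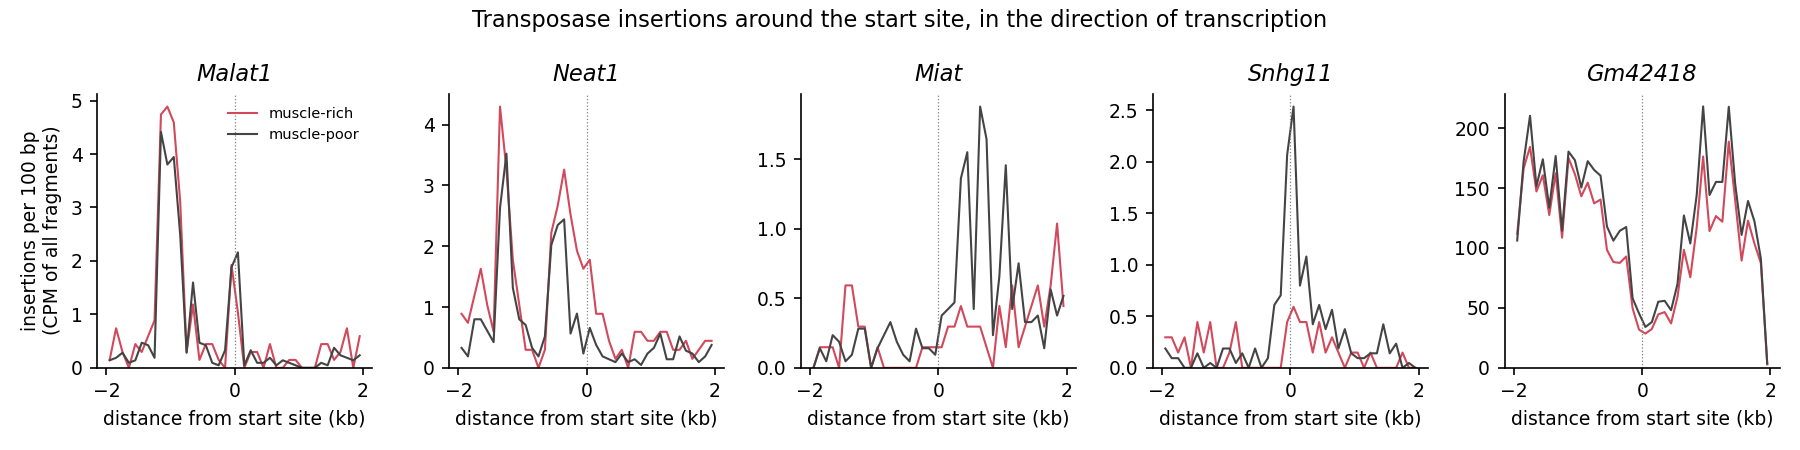
Transposase insertions in bins of 100 bp as CPM of all fragments (vertical axis, from 0) against distance from the GENCODE start site in kb, in the direction of transcription (horizontal axis), in muscle-rich (red) and muscle-poor (grey) spots. The Miat and Snhg11 maxima are seen in the muscle-poor spots, the Malat1 maximum lies upstream of the start in both groups, and the Gm42418 panel has a trough at the start.

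In muscle-rich spots the promoters of Miat and Snhg11 had fewer fragments. Miat had 13 fragments in the muscle-rich and 125 in the muscle-poor spots, or 14.2 against 45.3 CPM of promoter fragments, a fold of 0.313 (0.162 to 0.556). With 2 kb on either side the Miat fold was 0.568 (0.386 to 0.814). Relative to all fragments, the cut sites of the called peak past its start had a fold of 0.245 (0.135 to 0.415). Snhg11 had 13 against 121, a fold of 0.324 (0.168 to 0.575). Neat1 had 74 against 140, a fold of 1.59 (1.19 to 2.13), and with 2 kb on either side it was 1.495 (1.215 to 1.832), under 1.5-fold. Of 16012 genes with at least 100 promoter fragments, 12.1% were lower by at least 1.5-fold and 10.9% higher, and the Miat and Snhg11 folds lay at percentiles 0.650 and 0.725.

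Malat1, with 62 against 199 fragments, had a fold of 0.939 whose interval included 1 (0.694 to 1.25). That window cuts through the upstream peak of Malat1. Relative to all fragments, the cut sites of the upstream peak had a fold of 1.17 (0.953 to 1.42), an interval that included 1. A peak past the 3′ end of Malat1, chr19:5794752-5795405, was higher on the same scale, at 2.38 (1.61 to 3.50), on 49 against 65 cut sites. The peak over the start was at 0.721 (0.442 to 1.13), an interval that included 1.

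Gm42418 had 7289 against 9271 CPM of promoter fragments, a fold of 0.786 (0.765 to 0.808). Relative to all fragments, the cut sites of its 2 called peaks had folds of 0.894 (0.872 to 0.917) upstream and 0.831 (0.810 to 0.853) in the gene. As a check on the grouping, the promoter of Acta1 itself was at 2.23 times (1.47 to 3.37), and that of Ttn, with 16 fragments against 27, at 1.79 (0.899 to 3.44), an interval that included 1. In spots rich in neuronal genes, the Miat promoter was at 1.91 (1.19 to 2.97), on 26 fragments against 100. The Snhg11 promoter was at 2.17 (1.37 to 3.33), on 28 against 95. In connective tissue-rich spots they were at 0.504 (0.298 to 0.811) and 0.343 (0.178 to 0.609). In epithelium-rich spots they were at 0.824 (0.489 to 1.33) and 0.463 (0.239 to 0.826). The share of all promoters past 1.5-fold was not counted for these groups.

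RNA and promoter folds differed for Miat, Snhg11 and Gm42418. For Miat the RNA fold of 1.05 and the promoter fold of 0.313 had intervals that did not overlap, and for Snhg11 0.814 and 0.324 likewise. For Gm42418, whose window lies over the ribosomal repeat, the directions were opposite over all spots, 1.40 in RNA and 0.786 in fragments of the window. Within the 6 muscle-high segments its folds were 1.003 and 1.04 (1.005 to 1.09), and those of Miat and Snhg11 had overlapping intervals for RNA and promoter. For Neat1 both were above 1, at 2.67 and 1.59, and their intervals overlapped, as did those of Malat1, at 1.21 and 0.939. RNA levels were scaled to UMIs and fragments to promoter fragments, and with all fragments as the total, the promoter folds were 0.328 for Miat, 0.339 for Snhg11 and 0.823 for Gm42418.

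**Figure D5:**
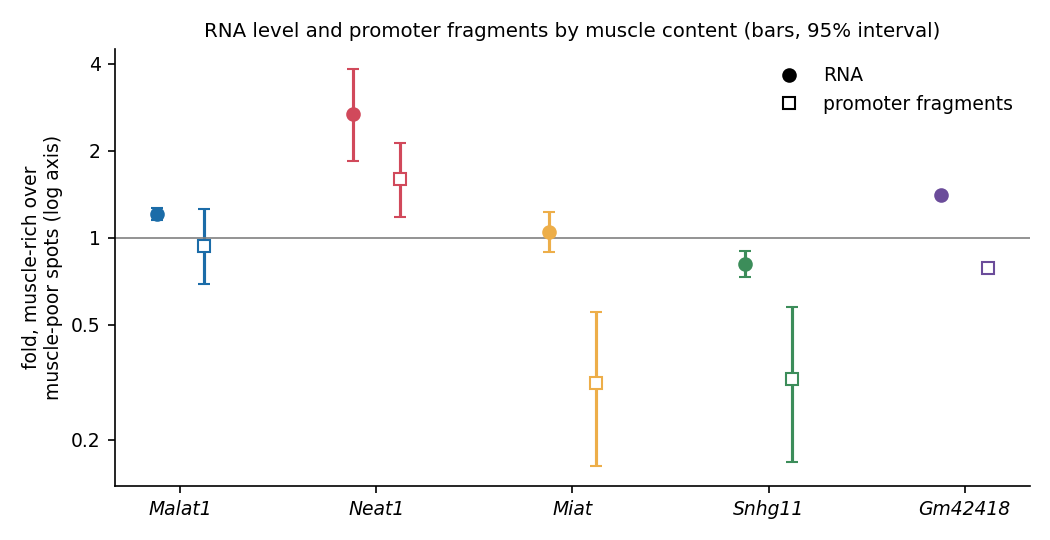
Fold of muscle-rich over muscle-poor spots (vertical log axis) for the RNA level (filled circles) and promoter fragments (open squares) of each gene; bars are 95% intervals and the grey line a fold of 1. Only Neat1 lies above 1 for both, and Miat and Snhg11 lie at 0.313 and 0.324 for promoter fragments.

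The promoter folds were also taken within and outside the 6 segments. Within them, Miat had 10 fragments in the muscle-rich and 13 in the other spots, a fold of 0.688 (0.270 to 1.70), Snhg11 12 and 12, a fold of 0.894 (0.367 to 2.17), and Neat1 65 and 64, a fold of 0.908 (0.633 to 1.30). The Gm42418 promoter fold turned in direction there, as given above, and outside them it was 0.970 with an interval that included 1 (0.910 to 1.03). Outside them, Miat had 3 fragments in 48 muscle-rich spots and 123 in 979 muscle-poor spots, a fold of 0.579 (0.118 to 1.73), Snhg11 1 and 118 (0.201, 0.00505 to 1.14), and Neat1 9 and 132 (1.62, 0.723 to 3.16). At these counts a difference outside the segments was not detectable for Miat, Snhg11 or Neat1. The fragments themselves differed: 53.8% were shorter than the DNA wrapped on a nucleosome in muscle-rich spots and 45.1% in muscle-poor spots, and the part of this in the promoter folds was not tested.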

How the data were processed

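According to the headers of the deposited files, the authors ran cellranger-arc 2.0.1 on both libraries against mm10, and the submitters' notes name Seurat 4.0. The deposited matrix holds raw counts, which are UMIs for 32285 genes and cut sites for 91223 peaks over 1993 barcodes, all of them also in the fragment file of 2500 barcodes. How those 1993 were chosen, and the strand setting, are not given in the sources used here. The counts were not normalised. The study's text, as given here, does not describe this assay.

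A spot was kept if it had between 500 and 6000 genes and no more than 20% mitochondrial UMIs. With 1 library there was no test. Folds are ratios of pooled counts with conditional binomial intervals, levels have exact Poisson intervals and shares exact Clopper-Pearson intervals, all at 95% and for counting error only. Promoter fragments overlap 1 kb on either side of the most upstream basic-transcript start in GENCODE M21. Genes with at least 200 UMIs, or 100 promoter fragments, entered the backgrounds. Sequences and their build came from RefSeq (GRCm38.p6). BLAST+ 2.17.0, Python 3.11.15, numpy 2.4.6, scipy 1.17.1 and pandas 2.3.3 were used. Folds and their intervals were tested on simulated Poisson counts, which hold no spread between spots beyond counting. Groups of spots, gene lists and the 5 genes were chosen with earlier results of these data known. Named genes were the 5, Acta1, Ttn, the 3 most similar genes of each, genes matching Gm42418, and list genes with most UMIs or past 1.5-fold; Nono, Sfpq, Son, Srrm2, Celf3, Qk and Sf1 were named for their roles. Other settings for spot filters, totals, groups and windows are in the closing section.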

Additional observations from a re-analysis of the deposited data

Results flagged for a closer look

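The fragment file held 507 barcodes that are not in the matrix and enter no comparison above, and promoter fragments of all 5 genes were found there. Gm42418 had 3640, Malat1 33, Neat1 26, Snhg11 19 and Miat 18. As CPM of the promoter fragments of those barcodes, these were 7136, 64.7, 51.0, 37.2 and 35.3, beside 8676, 73.1, 59.0, 33.3 and 36.5 in the kept spots.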

How the results depend on the processing

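Of 185 values under other settings, 124 stayed within the counting interval of the reported value or, for counts, within 1.5 times it, 55 moved beyond that and 6 turned in direction, which was counted for folds whose reported interval excluded 1. Of these, 1 was the Gm42418 fold by depth, 1.14 with fragments as depth. The others were within the 6 muscle-high second segments: the RNA folds of Neat1 (0.635), Malat1 (0.975) and Snhg11 (1.03) and the promoter folds of Neat1 (0.908) and Gm42418 (1.04). Another 4 folds crossed 1 where the reported interval already included it, with Snhg11 by depth at 1.08 with fragments as depth, the Malat1 promoter at 1.08 with 2 kb windows, and Miat RNA by muscle content at 0.981 without epithelium-rich spots and 0.969 without the segment of highest Neat1 level. Within the 6 segments the other folds that moved were 1.003 for Gm42418 RNA, 0.894 for the Snhg11 promoter and 0.688 for the Miat promoter. Outside the 6 segments, Gm42418 gave 1.25 (RNA) and 0.970 (promoter), and the Miat promoter 0.579. These settings, and those without the segment of highest Neat1 level or the epithelium-rich spots, were chosen after seeing the data. So were the epithelial-list folds without the muscle-rich spots. Why values moved was not tested.

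The Gm42418 fold by muscle content was 1.31 with 20% of spots as muscle-rich, 1.46 by the 12 muscle genes, 1.42 with those genes left out of the total, 1.37 within bins of depth, 1.39 without the segment with most muscle-rich spots, 1.37 without epithelium-rich spots and 1.38 without the segment of highest Neat1 level. Its promoter fold was 0.823 with all fragments as the total, 0.823 with 2 kb windows and 0.811 with 20% of spots as muscle-rich, and the Miat promoter fold was 0.568 with 2 kb windows. By depth, Gm42418 was at 0.921 with 10 bins, 0.928 without muscle-rich spots, 0.958 with at least 2000 UMIs per spot and 0.926 without the segment of highest Neat1 level. Neat1 by depth was at 1.49 with at least 2000 UMIs per spot, no longer past 1.5-fold. The Neat1 promoter fold by muscle content, at 1.495 with 2 kb windows, was no longer past it either. By the epithelial list, Neat1 was at 2.20 and Gm42418 at 1.20 without that segment, and Gm42418 at 1.24 without muscle-rich spots.

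With Gm42418 left out of the total, Malat1 had 2073, Snhg11 597 and Miat 229 CPM, where the smaller total by itself raises each CPM. Gm42418 had 51731 CPM without mitochondrial genes in the total and 50733 without the segment of highest Neat1 level, where Neat1 had 26.3. With windows of 500 bp, Malat1 lay at promoter percentile 67.1, Miat at 62.6 and Gm42418 at 99.99. With 2 kb, Malat1 lay at 93.2, Neat1 at 95.6 and Miat at 79.2, and with insertions Malat1 at 85.0 and Gm42418 at 99.99.

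Genes past 1.5-fold by muscle content numbered 517 higher and 457 lower of 7931. From 50 UMIs they were 1701 and 1206 of 12944 (13.1 and 9.32%), and from 500 UMIs 156 and 183 of 3979 (3.92 and 4.60%). Past 2-fold there were 186 and 52. By depth, genes past 1.5-fold numbered 253 and 127, or 1237 and 706 from 50 UMIs (9.56 and 5.45%). From 500 UMIs they were 28 and 6 (0.704 and 0.151%), and past 2-fold 33 and 3. The number of genes tested and the fold required set these counts in part, whatever the data, and they are among the 55 values that moved. By Pearson's r of log2 levels, 1 of the 3 most similar genes was shared for Neat1, Miat and Gm42418 and 0 for Malat1. Neat1, with 263 UMIs, is limited by depth in every comparison. No paired analysis was possible because there is 1 RNA and 1 accessibility library and no group has a second sample, so no replicates share a number. The libraries share spots with each other.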
